A study of Mus musculus with 12 samples.

Results

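The 848 m6A peaks described here are the single-block peaks that lay on genes with at least 2 peaks, out of 2643 peaks in the table of m6A regions. A peak was taken when its row listed exactly 1 block and its gene name stood in 2 or more rows. The rule used no read count. The members lay on 382 genes: 309 genes carried 2 of them, 56 carried 3, 11 carried 4, and 3 (Atg2a, Mtx3 and Tef) carried 5, while 3 genes held 1 member beside multi-block peaks. All 12 libraries came from HT22 cells, an immortalized line of mouse hippocampal neurons labelled as hippocampus and wild type. Per the study's methods, the cells of the treated group received mesaconitine (MA), an alkaloid of Aconitum plants, at 800 μM for 72 h, and the control group received 0 μM for the same time. Each group had 3 libraries made after immunoprecipitation with an anti-m6A antibody (IP) and 3 input libraries made without it, and all came from polyadenylated RNA. The labels do not say whether the 3 replicates were separate cultures.

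N6-methyladenosine (m6A) is the most common internal mark of mammalian mRNA. It is written co-transcriptionally by a METTL3 and METTL14 complex, mostly within the sequence context GGAC and its variants, and is read by proteins that steer splicing, translation and decay. A long transcript can carry several marks far apart, most often in long internal exons and around the stop codon. In a difference between peaks of the same table, the depth of the libraries is a constant that cancels.

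The table gives 1 pooled read number per peak for each of the 4 combinations of group and library type. Members held 62 to 5672 reads over these 4 columns (median 243.5), the most on Fnbp1 peak 1. With 1 pooled value a group, no replicate test could be made. Errors given below are 95% intervals from the Poisson counting error of the reads, which cover counting error only and not the spread between cultures. The ratio of a peak is the log2 of IP over input reads with 0.5 added to each. The change is the ratio after MA minus the ratio in control, centred on the median of all 2643 peaks, which lay at 0.90 before centring. A peak or a pair was called when it was at least 1.5-fold away from 0 and its interval excluded 0. Of the 8 neuronal markers looked up in the authors' mean normalized counts, Map2, Snap25, Nefl and Nefm were listed at 0 and Rbfox3 at 1.15, against 473 for Tubb3 and 4073 for Dlg4. The fibroblast-associated genes Col1a1 and Vim stood at 100160 and 110058.

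A single block did not mean a single exon. Of the 828 members that could be placed on a GENCODE transcript, 242 (29.2%) touched 2 to 4 exons, and 169 of the 848 spanned over 1000 bases of the genome, up to 195286. Their exonic part was short, with a median of 50 bases and at most 375. On the transcripts, 62 members lay in the 5′UTR, 463 (55.9%) in the coding sequence, 285 (34.4%) in the 3′UTR and 18 on non-coding transcripts. The members' transcripts had a median length of 4623 bases and 15 exons, against 3732 bases and 11 exons for the 1764 single-block peaks that were alone on their gene.

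The sequences below belong to the pairs of peaks with the largest difference in change relative to counting error, as far as both peaks lay wholly in coding exons or on a non-coding RNA and their row named 1 gene only. They are the exonic bases of each peak on GRCm38 (mm10), 5′ to 3′ on the strand of the gene, with GGAC in capitals. They are shown because the contrasting peaks of a gene can be read side by side, with the motif in view. Peaks 1 to 4 of Slc27a1, which encodes a long-chain fatty acid transporter, lay on the plus strand at chr8:71579654-71579703, chr8:71579729-71580011, chr8:71584506-71584641 and chr8:71584667-71584862. The last 3 of them each joined the bases of 2 exons.
Slc27a1 peak 1: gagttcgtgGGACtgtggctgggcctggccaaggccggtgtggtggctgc
Slc27a1 peak 2: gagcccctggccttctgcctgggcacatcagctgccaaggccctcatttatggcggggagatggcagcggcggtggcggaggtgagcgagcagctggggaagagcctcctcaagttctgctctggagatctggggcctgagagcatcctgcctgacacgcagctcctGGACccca
Slc27a1 peak 3: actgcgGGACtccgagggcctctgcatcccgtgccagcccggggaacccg
Slc27a1 peak 4: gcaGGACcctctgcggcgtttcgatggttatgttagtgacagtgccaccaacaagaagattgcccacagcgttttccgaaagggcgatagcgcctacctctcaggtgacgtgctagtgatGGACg

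Peak 1 of Pitpnm2 joined 2 exons at chr5:124123591-124123944 and peak 2 lay in 1 exon at chr5:124121364-124121488, both on the minus strand. The gene encodes a membrane-associated phosphatidylinositol transfer protein.
Pitpnm2 peak 1: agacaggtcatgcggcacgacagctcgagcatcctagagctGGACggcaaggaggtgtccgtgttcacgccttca
Pitpnm2 peak 2: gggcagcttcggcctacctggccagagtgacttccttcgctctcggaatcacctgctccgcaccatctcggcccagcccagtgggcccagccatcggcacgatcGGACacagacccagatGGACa

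Peaks 2 and 4 of Dock9, an activator of the small GTPase Cdc42, lay in coding exons on the minus strand at chr14:121562111-121562160 and chr14:121555216-121555315.
Dock9 peak 2: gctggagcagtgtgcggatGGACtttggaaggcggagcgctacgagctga
Dock9 peak 4: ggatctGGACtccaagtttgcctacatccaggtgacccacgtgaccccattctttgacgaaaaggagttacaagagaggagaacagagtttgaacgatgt

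Peaks 3 and 4 of Neat1, the long non-coding RNA that scaffolds paraspeckles, lay on the minus strand at chr19:5832035-5832134 and chr19:5828510-5828609.
Neat1 peak 3: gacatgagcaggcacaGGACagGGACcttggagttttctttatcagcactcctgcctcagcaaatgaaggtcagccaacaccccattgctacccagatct
Neat1 peak 4: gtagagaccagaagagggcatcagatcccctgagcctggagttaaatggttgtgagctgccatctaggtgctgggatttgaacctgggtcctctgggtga

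Peak 1 of Col4a3bp, which encodes a ceramide transfer protein, lay in 1 coding exon at chr13:96549197-96549246, and peak 2 joined 2 coding exons at chr13:96571951-96598302, both on the plus strand.
Col4a3bp peak 1: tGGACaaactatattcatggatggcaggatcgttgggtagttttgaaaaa
Col4a3bp peak 2: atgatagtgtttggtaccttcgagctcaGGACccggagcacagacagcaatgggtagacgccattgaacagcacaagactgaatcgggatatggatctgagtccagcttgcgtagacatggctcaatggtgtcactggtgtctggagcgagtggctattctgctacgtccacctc

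Of these 12 sequences, 11 held GGAC, and Neat1 peak 4 did not. Over all 828 placed members, 248 (30.0%) held GGAC, against 27.0% of all windows of the same length on the same transcripts and 31.4% of the peaks alone on their gene. With 100 bases added on each side, the share was 69.0% of members and 67.3% of windows. The longer motif GGACT stood in 9.18% of members and 8.27% of windows. A match says only that these letters are in the window.

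The first question was how the members changed as a whole. After MA, 188 members (22.2%) were called higher and 150 (17.7%) lower, against 20.5% and 19.4% of all peaks, and their median change was 0.03. These shares were close to the background of the table. The split depends on the centring: without scaling, 487 members were called higher and 26 lower. By place, 118 of the 463 members of the coding sequence were higher and 93 lower. In the 3′UTR 51 of 285 were higher and 46 lower, and in the 5′UTR 12 of 62 were higher and 6 lower. The 242 members that touched several exons were higher in 68 cases and lower in 40. The 586 within 1 exon were higher in 119 and lower in 108.

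The highest members relative to their error were on 4 genes. Reads are given from here on as input then IP in control, followed by input then IP after MA. Slc27a1 peak 2 had 72, 11, 21 and 196 reads, a change of 4.95 (3.84 to 6.05). Peak 1 of the same gene had 184, 77, 121 and 427 reads, a change of 2.16 (1.68 to 2.64). In both peaks the IP was the lower column in control and the higher column after MA. Ubxn7 peak 1, in the 3′UTR of a cofactor of the p97 ATPase, had 429, 244, 304 and 754 reads and a change of 1.22 (0.92 to 1.52). Marchf8 peak 1, on a transcript with no coding sequence of this ubiquitin ligase gene, had 165, 81, 55 and 252 reads and a change of 2.30 (1.74 to 2.87). Bcat1 peak 2, in the 3′UTR of a branched-chain aminotransferase gene, changed by 1.41 (0.98 to 1.84).

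The next 3 peaks were among the lowest members relative to their error, and each had more IP than input reads in control. Gsg1l peak 1, in the coding sequence of an auxiliary subunit of AMPA receptors, had 20, 74, 34 and 26 reads, a change of -3.15 (-4.16 to -2.13). Cdc42bpa peak 2 in the 3′UTR changed by -1.59 (-2.08 to -1.09) and Bahd1 peak 3 in the 3′UTR by -1.32 (-1.74 to -0.91). In Gsg1l the IP was below the input after MA.

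**Figure D1:**
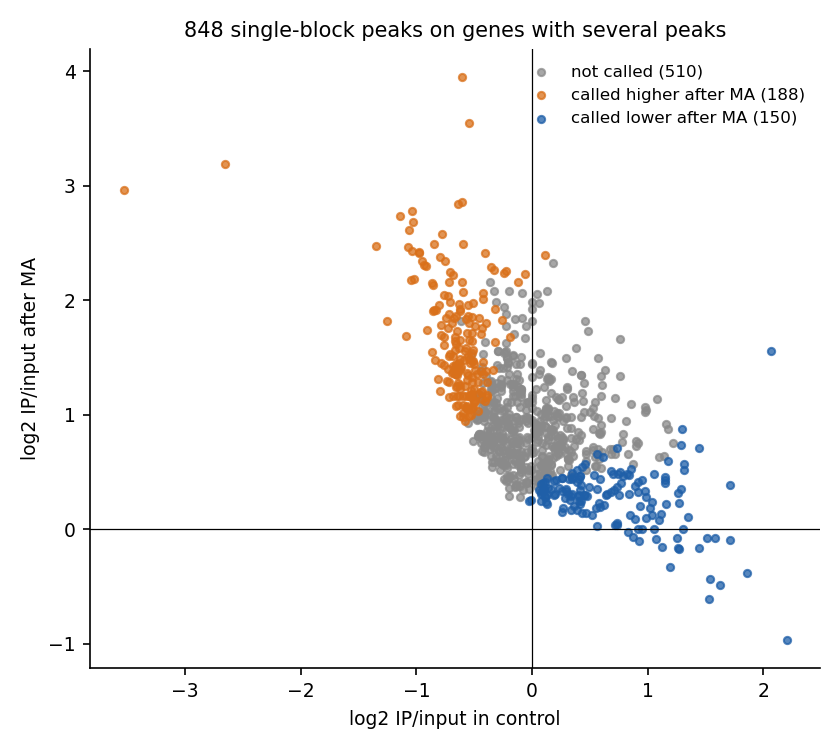
Each of the 848 members by its log2 ratio of IP to input reads in control (x axis) and after MA (y axis), coloured by its call. The points run from the upper left, where the 188 members called higher lie, to the lower right, where the 150 called lower lie.

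Across members, the ratio in control and the ratio after MA ran against each other (Pearson's r = -0.65, Spearman's rho = -0.65 over 848 members, which share libraries and depth). With the reads of both groups added, every member had more IP than input reads, at a log2 ratio of 0.05 to 1.92, so a member with a ratio below 0 in 1 group had to have one above 0 in the other. In control, 465 members had a ratio below 0, and after MA 18 did. Members called higher went from a median ratio of -0.61 in control to 1.55 after MA, and those called lower from 0.62 to 0.31. The scatter of both ratios shows this as a band with no member in the lower left.

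The members' main comparison set peaks of the same gene against each other in 573 pairs on 379 genes, taking the 3′ peak minus the 5′ peak. The change differed in 213 pairs (37.2%) on 150 genes. The background was 42.4%, the share among 2074 pairs of neighbouring single-block peaks that lie on different genes. The median size of the difference was 0.87 on the log2 scale, or 1.83-fold, with a median counting error of 0.59, against 0.96 for the neighbours on different genes. The changes of both peaks of a gene correlated with r = 0.20 and rho = 0.19, and those of the neighbours with r = 0.01. The 3′ peak was the higher one in 101 of the called pairs and the lower one in 112.

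The reads behind the change were also compared. The change of the IP reads alone differed in 176 pairs (30.7%), against 43.0% of the neighbours on different genes. The change of the input reads alone differed in 112 pairs (19.5%), against 23.7% of the neighbours on different genes. The ratio in control differed in 122 pairs (21.3%; neighbours 29.1%) and the ratio after MA in 131 (22.9%; neighbours 29.1%). Of the 213 pairs called for the change, 137 also differed in the change of the IP reads and 97 in that of the input reads. The order of both peaks turned between control and MA in 432 of 573 pairs (75.4%), against 71.3% of the neighbours. The order was called in both groups and turned in 55 pairs, and was called and the same in 0, against 290 and 2 of the 2074 pairs of neighbours. Every peak of the table had more IP than input reads over both groups, which ties its ratios in control and after MA to each other. A turned order was thereby favoured beforehand, so these counts are no evidence about pairs of the same gene.

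Distance on the transcript went with the size of these differences. For the 212 pairs under 200 bases apart, the median difference was 0.58, 23.6% were called and the changes correlated with r = 0.44. For the 121 pairs from 200 to under 1000 bases apart, the values were 1.04, 39.7% and 0.27. For the 94 pairs from 1000 to under 2000 bases apart they were 1.13, 51.1% and -0.06, and for the 132 pairs 2000 or more bases apart 0.98, 48.5% and -0.07. The counting error was similar in the 4 classes, with medians of 0.57 to 0.63. The input reads followed the same course, with 12.3% of pairs called and r = 0.32 under 200 bases, and 22.7% and r = 0.00 at 2000 bases or more. In the methods the RNA was cut to 100–200 nt before the IP, so that 1 fragment can reach both peaks of a near pair, and the part of shared fragments in these values was not tested.

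**Figure D2:**
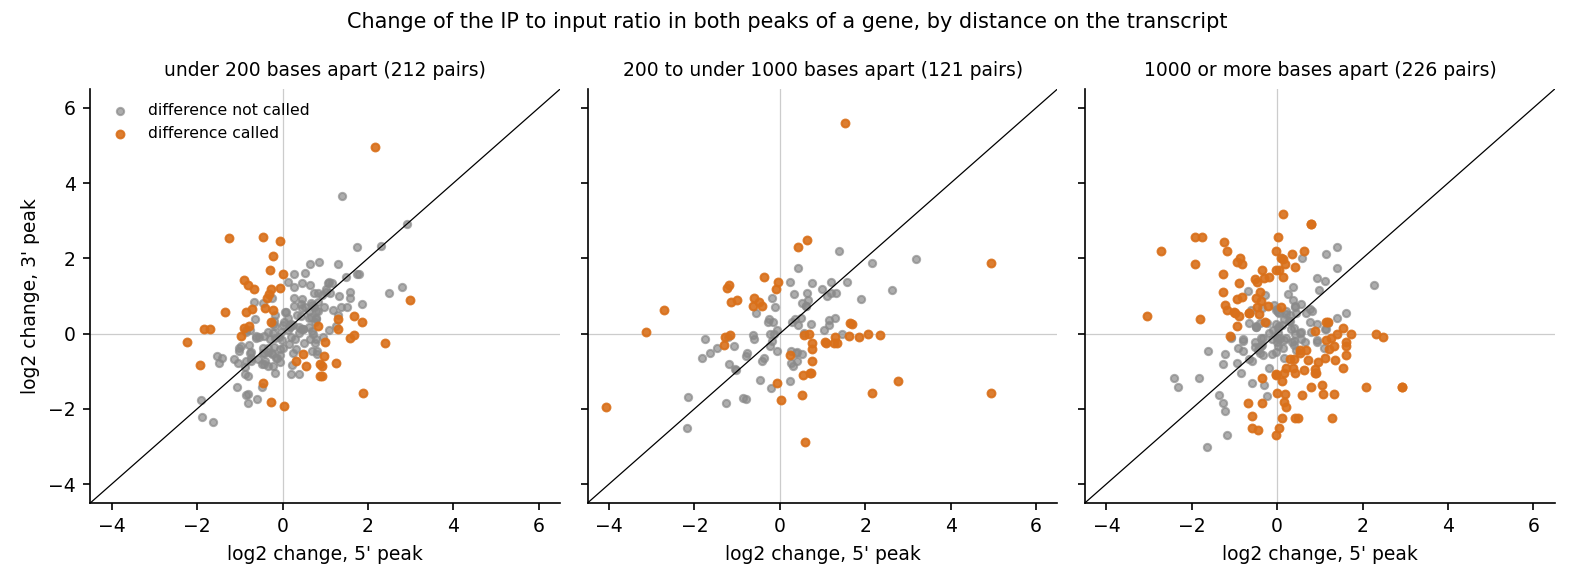
The log2 change of the 5′ peak (x axis) against that of the 3′ peak (y axis) of the same gene, in 3 classes of distance on the transcript, with the line of equal change. Points lie along the line in the 212 pairs under 200 bases apart and spread without slope in the 226 pairs 1000 or more bases apart.

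**Figure D3:**
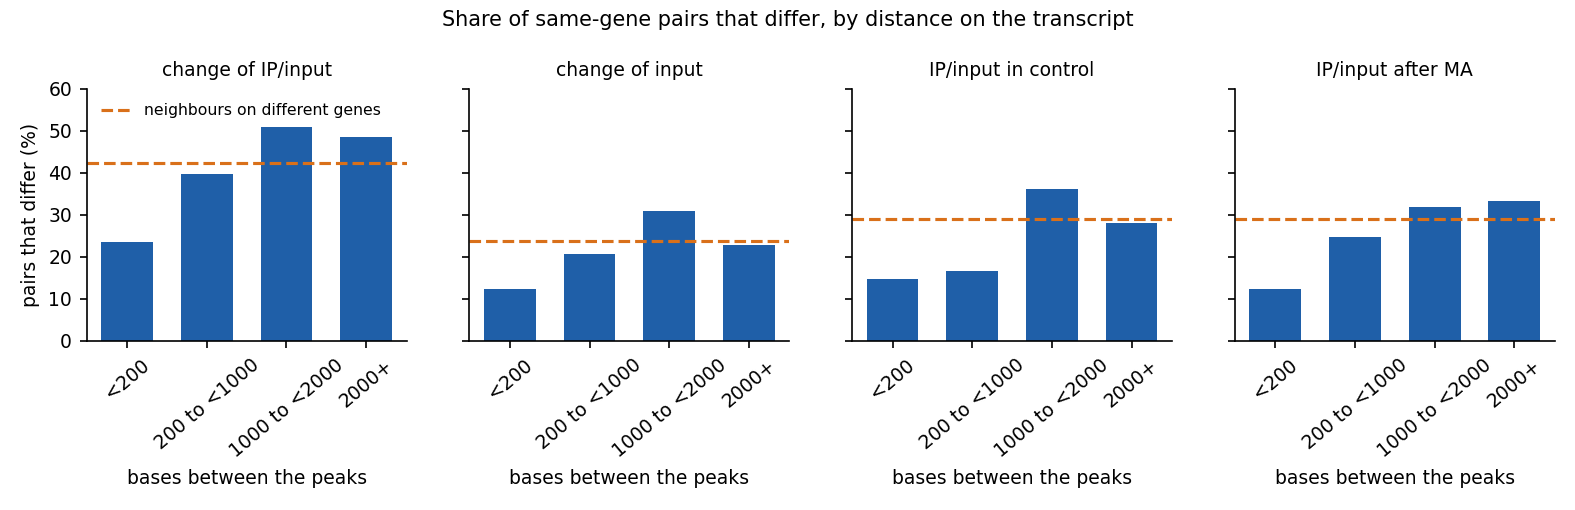
Share of same-gene pairs called different (bars) in 4 classes of distance, for the change, the input change and both ratios, with the share among neighbouring peaks on different genes as a dashed line in each panel. For the change the line lies at 42.4%, above the 2 nearer classes and below the 2 farther ones.

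The calls of single peaks showed the same dependence. In 118 pairs both peaks were called, 43 of them both higher and 34 both lower, and 41 pairs had opposite calls on 28 genes. A call of lower is relative to the median of all peaks, so the ratio itself could still rise after MA. Col4a3bp peak 2 was called lower with a ratio of 0.11 in control and 0.41 after MA. Slc27a1 peak 4 was called lower with 0.74 and 0.05. How many peaks called lower in these pairs rose was not counted. Under 200 bases apart, 41 pairs were called the same way and 6 opposite ways. From 200 to under 1000 bases these numbers were 16 and 10, and at 1000 bases or more 19 and 25. Pairs within the coding sequence differed in 38.0% of 242 cases, pairs within the 3′UTR in 31.3% of 131, and pairs of a coding and a 3′UTR peak in 45.9% of 111.

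Slc27a1 gave the largest contrast. Peak 4 had 52, 87, 56 and 58 reads, a change of -1.59 (-2.31 to -0.87), while the other 3 peaks were called higher. Peak 3, which ends 25 bases before peak 4 on the same exon, had 158, 74, 120 and 388 reads and a change of 1.87 (1.38 to 2.37). Peaks 3 and 4 thus differed by -3.46 (-4.34 to -2.59), which is 11-fold. Between peaks 2 and 4 the difference was -6.54 (-7.85 to -5.22), and between peaks 1 and 4 -3.75 (-4.62 to -2.89). The input change was called different in 4 of the 6 Slc27a1 pairs. It differed by 1.86 (0.98 to 2.74) between peaks 2 and 4 and by 0.71 (0.07 to 1.34) between peaks 1 and 4, and was not called between peaks 3 and 4, at 0.50 (-0.14 to 1.14). The IP reads of peaks 3 and 4 differed by -2.96 (-3.56 to -2.37).

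Polr2e, a subunit gene of the RNA polymerases, had the contrast with the most reads. Its coding peak 1 had 938, 921, 910 and 1079 reads and its 3′UTR peak 2 had 397, 269, 252 and 533. The change was -0.63 (-0.81 to -0.45) in peak 1 and 0.74 (0.43 to 1.05) in peak 2, a difference of 1.37 (1.01 to 1.73) over 525 bases of transcript. In peak 1 the 4 columns stayed within a narrow range. In peak 2 the input was lower and the IP higher after MA than in control. The input change of both peaks differed by -0.61 (-0.87 to -0.35), the second largest such difference relative to its error.

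Pitpnm2 peak 1 had 55, 26, 14 and 88 reads and peak 2 had 75, 112, 99 and 116. Peak 1 was called higher at 2.77 and peak 2 lower at -1.25, a difference of -4.02 (-5.21 to -2.83). Its input reads differed the most relative to error among all pairs, by 2.33 (1.40 to 3.27), since input fell from 55 to 14 reads under peak 1 and went from 75 to 99 under peak 2. The authors' mean normalized count of the gene was 748.

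Neat1 peak 3 had 39, 15, 14 and 80 reads and peak 4 had 28, 119, 17 and 51. They changed by 2.92 and -1.41, a difference of -4.33 (-5.86 to -2.81). Peak 4 was the only one of the 4 Neat1 peaks with more IP than input reads in control. Whether the reads of these peaks also match other places of the genome was not tested. Their IP reads differed by -3.59 (-4.51 to -2.68), and their input reads by 0.74 with an interval that includes 0.

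Dock9 peaks 2 and 4 lay 328 bases apart on the transcript. Peak 2 had 371, 249, 237 and 496 reads and peak 4 had 96, 127, 118 and 140, and their changes of 0.74 and -1.06 differed by -1.79 (-2.41 to -1.18). Col4a3bp peaks 1 and 2, 125 bases apart on the transcript and 22704 on the genome, had 382, 232, 252 and 560 reads and 123, 133, 121 and 161 reads. Their changes of 0.97 and -0.60 differed by -1.57 (-2.15 to -0.99). In both genes the 5′ peak was the deeper one and went from less IP than input to more.

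Other large contrasts crossed regions of the transcript. Nipa2, a magnesium transporter gene, differed by 4.32 (2.71 to 5.94) between coding peak 3 and 3′UTR peak 4. Glo1, whose product detoxifies methylglyoxal, differed by -2.08 (-2.83 to -1.32) between coding peak 1 and 3′UTR peak 3. Cntrob, a centriole protein gene, differed by 2.86 (1.92 to 3.79) between 5′UTR peak 1 and coding peak 2. The peaks named for both Gm20605 and Lrch4 differed by 3.78 (2.63 to 4.94), and overlapping genes there cannot be told apart. A stretch of 50 bases of Glo1 peaks 1 and 2 and of Nipa2 peak 2 also stands in a transcript of another gene name, so these reads are uncertain.

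**Figure D4:**
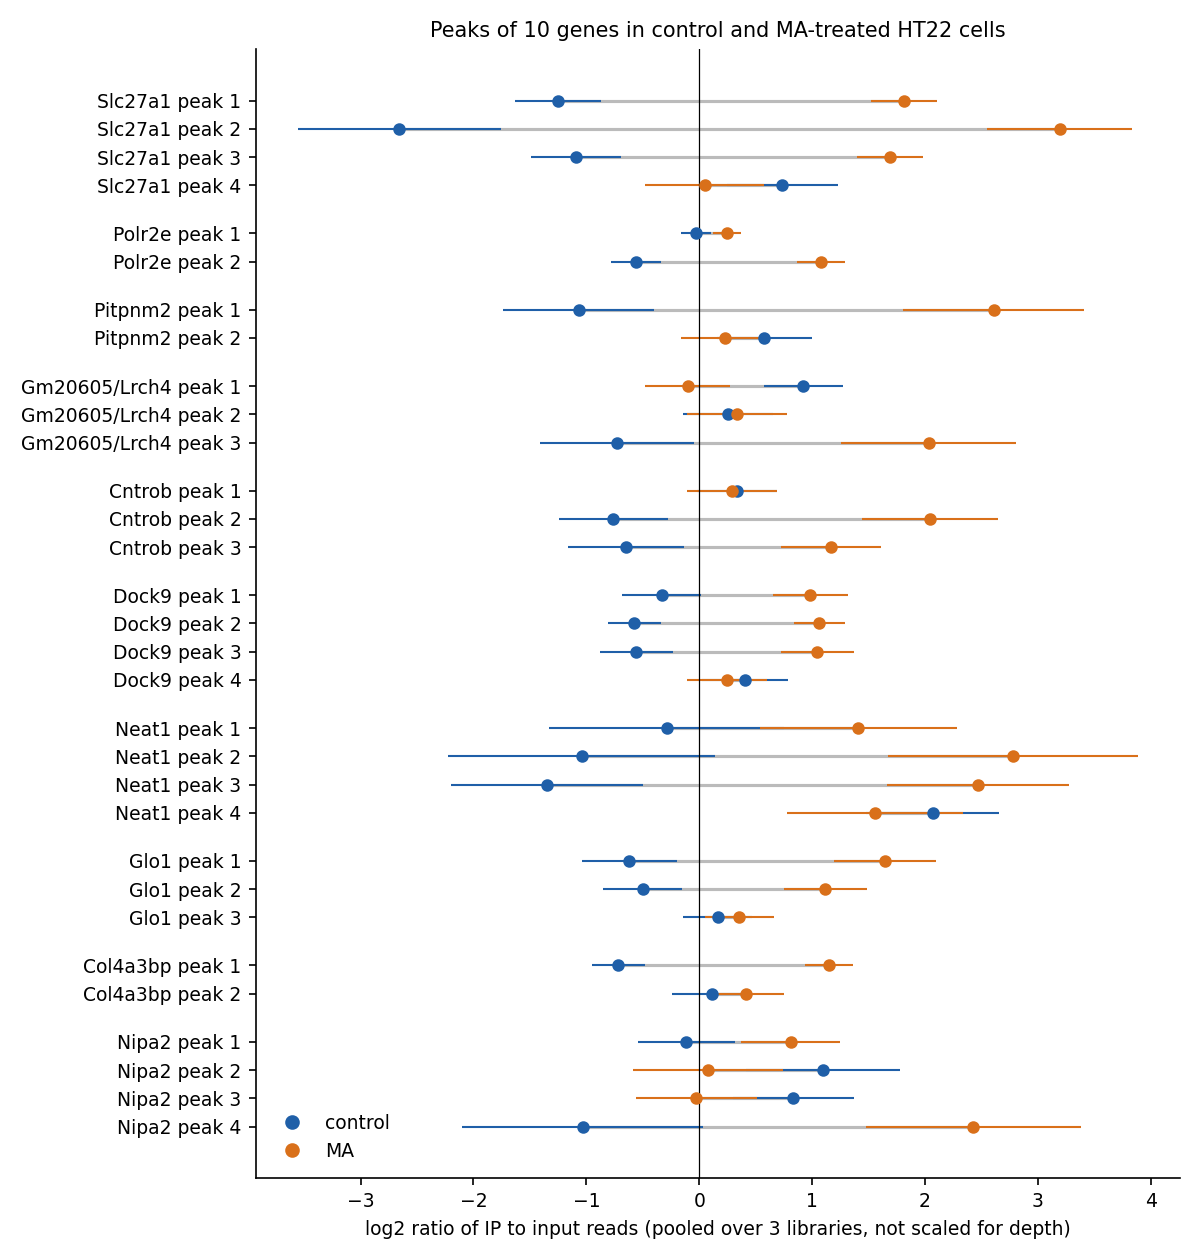
Log2 ratio of IP to input reads in control (blue) and after MA (orange) for every member on the 10 genes with the largest contrasts, with 95% counting intervals. In Slc27a1 peaks 1 to 3 the ratio crossed from below 0 to above 0, while in peak 4 the points lie at 0.74 in control and 0.05 after MA.

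Opposite calls also occurred in peaks close together. Sec24a, a cargo adaptor gene of COPII vesicles, had 88, 63, 43 and 111 reads in peak 1 and 30, 49, 45 and 63 reads in peak 2, which lies 25 bases further. They were called higher at 0.93 and lower at -1.12, and the difference was -2.05. The input change of this pair differed by 1.60 (0.76 to 2.45), while the IP change was not called different, at -0.45 (-1.15 to 0.24). Proser1 peaks 1 and 2, also 25 bases apart, changed by 0.88 and -0.81. Arl8a, a lysosomal GTPase gene, had 3′UTR peaks 50 bases apart that changed by -1.26 and 2.55, the second resting on 4 MA input reads. Of the 111 pairs at this smallest gap of 25 bases, 25 (22.5%) differed, 23 were called the same way and 3 opposite ways.

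Among pairs farther apart, Kmt2d, a histone methyltransferase gene, had coding peaks 3550 bases apart that changed by -1.24 and 2.43. Sugp2 had coding peaks 825 bases apart that changed by 0.60 and -2.88. Tnrc6c, a gene of the miRNA silencing machinery, had a coding peak at -1.27 and 3′UTR peaks at 1.58 and 1.12. Gsk3a, a kinase gene, had a coding peak at 1.13 and a 3′UTR peak at -0.66.

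The next pairs had the narrowest intervals among those not called, which does not by itself make their peaks alike. The coding peaks of Gstm2, a glutathione transferase gene, had 1410, 1234, 999 and 1375 reads and 1076, 1004, 840 and 1021 reads. They differed by -0.27 (-0.51 to -0.03), which is under 1.5-fold although the interval excludes 0. Grb2, a signalling adaptor gene, differed by -0.04 (-0.44 to 0.36) between its 5′UTR peaks. Fosl2, an AP-1 transcription factor gene, differed by 0.03 (-0.40 to 0.46), Eif2b3 by 0.28 (-0.13 to 0.68) and Ift80 by 0.37 (-0.05 to 0.78). Mcoln1, a lysosomal channel gene, differed by 0.15 (-0.24 to 0.53). The farthest bound of the 6 intervals was the 0.78 of Ift80. This bound and the 0.68 of Eif2b3 lie beyond 1.5-fold, which is 0.58 on the log2 scale.

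Among the pairs with the largest input differences relative to error were those of 3 further genes. Wdr4, a partner of a tRNA methyltransferase, had 66, 70, 70 and 113 reads in 3′UTR peak 2 and 58, 46, 15 and 74 in 3′UTR peak 3. The change differed by 1.99 (0.83 to 3.16), the input change by -2.0 (-2.94 to -1.06) and the IP change by -0.01 (-0.69 to 0.67). The IP reads of both peaks moved alike within error, and the contrast lay in the input. Bahd1 peaks 2 and 3 showed the same, with an input difference of 0.93 (0.50 to 1.35) and an IP difference of 0.06 (-0.27 to 0.39). Snrpa1 peaks 1 and 2, 25 bases apart, differed by 1.09 (0.62 to 1.56) in input, and both share a stretch with another gene name.

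The 14 genes with 4 or 5 members held 59 of them, 19 called higher and 13 lower, against 20.5% and 19.4% of all peaks. Of their 96 pairs, 48 differed, against 42.4% of the neighbours on different genes. Of these genes, 8 had calls in both directions, 3 only higher, 2 only lower, and Lnpk had none. More members give more occasions for calls in both directions, and the count was not compared with genes of fewer members. Atg2a, which encodes a lipid transfer protein of the growing autophagosome, changed by -1.17, -0.03, -2.71, 0.63 and 2.19 from its 5′ to its 3′ peak. Its peak 3 had 10, 34, 16 and 15 reads and its 3′UTR peak 5 had 23, 15, 9 and 53. Of the 10 Atg2a pairs, 8 differed in the change and 2 in the input change.

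Tef, a clock-controlled transcription factor gene, changed by 1.29 in its 5′UTR peak, by 0.49, 0.12 and 0.41 in its 3 coding peaks and by -2.23 in its 3′UTR peak. The input of Tef was called different in 5 of 10 pairs. Mtx3, a gene of the mitochondrial outer membrane, had 3 of 5 peaks called higher (1.40, 1.74 and 2.31) and none lower. Nipa2 had peaks at 0.02, -1.92, -1.76 and 2.56, with 5 of 6 pairs called. Pip4k2a, a lipid kinase gene, went from -0.86 through 0.09 and 0.58 to 2.0 along its 3′UTR.

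Smaller spreads stood at the other end. Lnpk, which shapes junctions of the endoplasmic reticulum, had 4 3′UTR peaks between -0.50 and 0.21 and 0 of 6 pairs called. Nf1, a Ras GTPase-activating protein gene, had coding peaks between -0.44 and 0.68 and 2 of 6 pairs called. Sash1 had 4 coding peaks between -1.74 and -0.14, 2 of them called lower, and 0 of 6 pairs called. Dym peaks ran from -0.25 to 1.33, the peaks named for Mir8098 and Wdfy2 from -0.72 to 0.75, and those of Rad54l2 from -1.81 to 0.37.

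**Figure D5:**
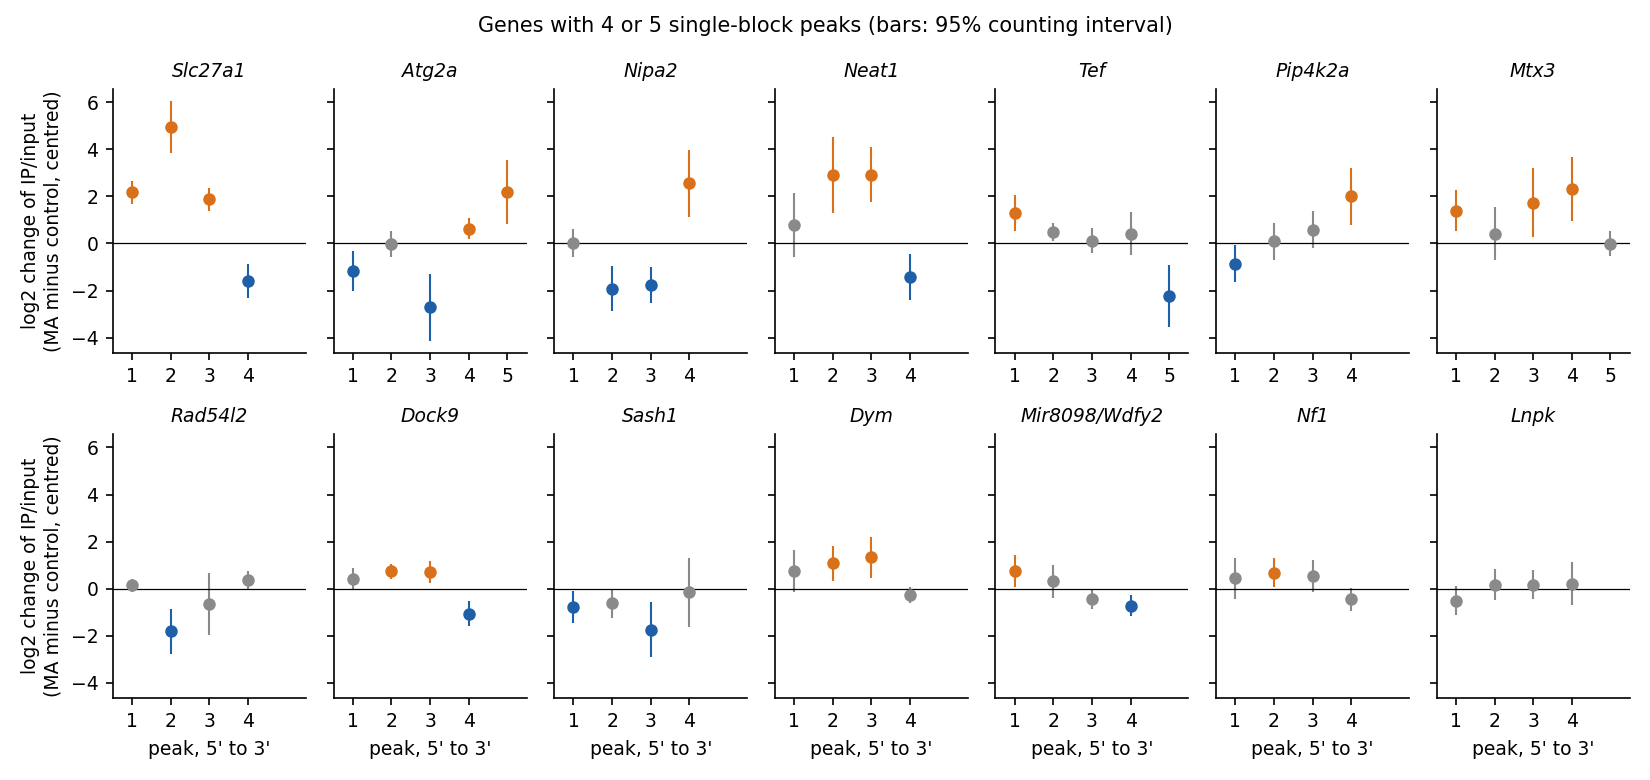
Centred log2 change of each member, 5′ to 3′, on the 14 genes with 4 or 5 members, with 95% counting intervals (orange called higher, blue called lower, grey not called). Slc27a1 spans 6.54 log2 units between its peaks and Lnpk 0.71.

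Gene lists gave small numbers of members, to be read against the 20.5% of all peaks called higher and the 19.4% called lower. The autophagy list had 11 members on 4 genes, 3 higher and 4 lower, with a median change of -0.10. Besides Atg2a, both peaks of Atg14, which recruits the class III PI3-kinase, were lower (-1.02 and -0.97), both peaks of the kinase gene Ulk1 were not called (-0.20 and 0.03), and C9orf72 had a coding peak at 2.49 and a 3′UTR peak at -0.10. The lysosome list had 13 members on 6 genes, 5 higher and 0 lower (all peaks 20.5% and 19.4%), with a median of 0.67. These were both peaks of the cation channel gene Mcoln1 (0.67 and 0.81), both of the mannosidase gene Man2b1 (1.0 and 1.19) and 1 of 3 of the galactosylceramidase gene Galc (1.69).

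The matrix and adhesion list had 6 members, 3 higher and 0 lower (all peaks 20.5% and 19.4%), on Itgb2 (1.16 and 1.34) and Lama5 (1.38 in 1 of 2 peaks), while neither Col4a1 peak was called. Both peaks of Prickle2, a planar polarity gene that is not on this list, were lower (-1.23 and -2.07). Of the 50 members on 18 genes that the study names for m6A and expression, 21 were higher and 15 lower, against the same shares of all peaks. These genes were chosen on the same libraries and are no independent evidence of a direction. They include Mcoln1, Galc and Ctsb of the lysosome list, Itgb2 of the matrix list, Atg2a and C9orf72 of the autophagy list, and Prickle2. The calls on those genes are therefore no independent evidence either. No member lay on a writer, eraser or reader of m6A, or on a neuron, astrocyte, fibroblast or microglia marker.

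GGAC was also compared within the same gene. In the 219 pairs with GGAC in 1 peak only, the peak with the motif had the higher change in 103 and the higher control ratio in 111, and the median difference was -0.06. In the 60 pairs with GGAC in both peaks 53.3% differed, against 36.1% with GGAC in 1 and 35.4% of the 280 pairs with GGAC in neither. The classes were not matched for peak length, reads or distance between the peaks, so a part of the motif was not tested. Members called lower held GGAC in 37.2% (windows 28.6%) and those called higher in 29.4% (windows 27.8%). Members not called held it in 28.0% (windows 26.3%). Which members fall in each class depends on the centring.

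Some pairs of rows cannot be told apart. The 2 peaks of Gm28840 on chromosome Y, 8.23 Mb apart, had identical reads in all 4 columns (45, 56, 43 and 66), and so had 1 pair named for Gm14590 and other predicted genes on chromosome X (41, 55, 64 and 163). Their difference of 0 stands in the counts above. In all, 28 of the 828 placed members held a stretch of 50 bases that a transcript of another gene name also holds. The search covered exact matches to annotated transcripts only, so inexact repeats and copies elsewhere in the genome were not looked for. Of the 28 members with a shared stretch, 8 were called higher and 4 lower, against 20.5% and 19.4% of all peaks.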

How the data were processed

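HT22 cells were profiled by MeRIP-seq in 3 IP and 3 input libraries of each of control and MA. Per the study's methods, reads were trimmed with fastp, aligned to mm10 with HISAT2, and peaks were called and compared with exomePeak2; versions are not given in the sources used here. For every peak the authors deposited 4 columns of read counts, 1 for each group of 3 libraries, with no replicate number; whether they are sums or means is not given in the sources used here, and the Poisson intervals take the numbers as listed. The library kit carries unique molecular identifiers, and their use in these counts is not given either. The mean normalized count deposited by the authors for each gene is a signal scaled by DESeq2 size factors, used here only for expression levels. The authors' fold changes, p-values and scores of peaks and genes were not used.

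From the 4 read columns, log2 ratios, their change and differences within a gene were computed with 0.5 reads added, in Python 3.11.15 with numpy 2.4.6 and pandas 2.3.3. The authors' own scaling used background regions, which are not used here, so the change was centred on the median of all peaks. Differences within a gene do not depend on it. Calls took 1.5-fold and a 95% Poisson interval. The calling was run on simulated Poisson counts, the error that the interval itself assumes, so the spread between cultures was not tested. Peaks were placed on GENCODE M21 transcripts (GRCm38), and sequences were read from GRCm38 with samtools 1.23.1. Pairs were named by rule: the 12 called with the largest difference relative to error, 6 uncalled with the narrowest interval, 5 with the largest input difference, genes with 4 or more members or calls both ways, and listed genes. Single members were named as the 6 highest and 6 lowest relative to error; 1 of the lowest and 1 gene list are not reported here. The members and lists were chosen with earlier results of these data known.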

Additional observations from a re-analysis of the deposited data

How the results depend on the processing

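The number of pairs that differed in the change stayed within 1.5 times its 213 of 573 under every alternative run: 143 with a 99% interval, 190 at 2-fold, 214 with no fold threshold, 164 of 422 with at least 100 reads in each peak, 170 of 395 without pairs under 200 bases apart on the genome, and 176 with the IP reads alone, an alternative chosen after seeing the data. The median size (0.80 to 0.87) and the correlation (0.15 to 0.21) moved little under their alternatives. The pair counts of the other measures were lower at 99% and at 2-fold: 53 and 63 for the input change, 73 and 77 for the control ratio, and 75 and 79 for the MA ratio. Among single members, the split of 188 higher and 150 lower became 487 and 26 without scaling, and 96 were lower at 2-fold. Opposite calls within a gene rest on the same centring and were not recounted without it. Without scaling, Polr2e peak 1 turned from -0.63 to 0.27.

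No paired analysis was possible because the read columns are pooled over the replicates and carry no replicate numbers. For the same reason the alternatives that leave out a replicate were not run, and the spread between cultures is not known. Peaks entered the table only with more IP than input reads over both groups, which ties the ratios of a peak in control and after MA to each other. The median counting error of a difference within a gene, 0.59 on the log2 scale, limits which differences were detectable at this depth.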

Other observations

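The genes with several peaks in the table were the more abundant ones in the authors' mean normalized counts. Their median was 1511 over 372 genes, against 1043 over 1745 genes with 1 peak in the table. The quartiles overlapped, at 658 to 3263 and 288 to 2655. GC content of the members' exonic bases had a median of 52.0%, as in the peaks alone on their gene, and ran from a median of 64.0% in the 5′UTR to 46.7% in the 3′UTR. Across members GC content and change had r = -0.02, and across the 559 pairs with both sequences the differences in GC content and in change had r = 0.08. Of the 216 members with 60% GC or more, 55 (25.5%) were called higher and 45 (20.8%) lower. Of the 120 under 40% GC, 24 (20%) were called higher and 18 (15%) lower. Among all peaks the shares were 20.5% and 19.4%.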
